A study of Mus musculus with 6 samples.

Results

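Coagulation and fibrinolysis factors are 34 genes of blood clotting, of clot removal and of their control, chosen by gene symbol. The list holds F2, F3, F5, F7, F9, F10, F11, F12, F13b, Fga, Fgb, Fgg, Plg, Proc, Pros1, Proz, Procr, Thbd, Klkb1, Kng1, Kng2, Hrg, Cpb2, Tfpi, Tfpi2, Ggcx, Vkorc1, Gas6, Habp2, Ahsg, Fetub, Mst1, Plat and Plau. All 34 were among the 23284 genes counted, and 30 of them were among the 9180 genes that passed the filter on low counts. F3, Procr, Plat and Plau did not pass. Total liver RNA was sequenced from mice of the C57BL6/J strain at 8 weeks of age, in 3 libraries from homozygous Trim24 knockout liver (Trim24-KO, named KO1, KO2 and KO3 by replicate) and 3 from wild type liver (WT1, WT2 and WT3). The labels give neither the knockout allele, the sex, nor whether each replicate was its own mouse, and a p-value here therefore reflects only how far the libraries scatter, which may be technical. Trim24, which encodes a nuclear receptor cofactor, had counts of 3, 2 and 2 in KO1 to KO3 and of 31, 45 and 44 in WT1 to WT3.

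Blood clots when a cascade of serine proteases, each activating the next, ends in thrombin, which cuts fibrinogen into fibrin. Hepatocytes make and secrete most of these proteins. Several of them need a vitamin K dependent carboxylation of glutamate to bind membranes, and a separate contact system of factor XII, prekallikrein and high molecular weight kininogen can start the cascade from a surface. Plasmin, made from plasminogen, dissolves the clot, and the endothelium holds receptors and inhibitors that keep thrombin in check. Not every listed protein is a clotting factor. Ahsg and Fetub encode fetuins, plasma proteins of the cystatin family, Mst1 encodes macrophage stimulating protein, a relative of plasminogen without protease activity, and Gas6 encodes a relative of protein S that activates receptor tyrosine kinases.

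Reads in genes came to 1607276, 1754269 and 2872421 in KO1 to KO3 and to 1495583, 1597540 and 1732309 in WT1 to WT3, since 93.3% to 95.8% of the counted reads fell in no gene. A count of 0 allows up to 3 counts, which was 1.04 to 2.10 CPM (counts per 1000000 reads in tested genes, scaled by the TMM factor), and this limit covers counting error only. The 10 hepatocyte markers summed to 125469, 95817 and 132042 CPM in KO1 to KO3 and to 147863, 137199 and 142185 CPM in WT1 to WT3. None was at 0 in all libraries or passed the test, Serpina1a (edgeR adjusted p = 0.13) and Apoa1 (0.21) having the smallest p. All 10 had a negative fitted change, beside 4514 of all 9180 tested genes. None of the tested markers of platelets (1, Gp1ba), cholangiocytes (3, of which Cd24a and Pkhd1 had the smallest p) and red blood cells (2, Beta-s and Alas2) was called. The platelet markers Gp9 and Treml1 and the red blood cell markers Hba-a1 and Hba-a2 had a count of 0 in every library. So had the acinar marker Amy2a5. Markers of pancreatic acinar cells summed to 1049, 14.7 and 677 CPM in KO1 to KO3, against 39.1, 15.2 and 12.5 CPM in WT1 to WT3. The 1 acinar marker that passed the filter, Cela1, was called higher (68.7, 11.4 and 48.0 CPM in KO1 to KO3, against 15.4, 10.6 and 11.3 CPM in WT1 to WT3, edgeR adjusted p = 0.046), a call lost with DESeq2, with limma-voom and without each library other than KO2. With KO2 alone its change was -0.12 (edgeR adjusted p = 0.91). KO1 and KO3 thus stood apart in these markers, and results that depend on them are also given for KO2 alone against wild type, a fit in which the scatter comes from the wild type libraries only.

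The members took 3.62%, 4.83% and 4.29% of the reads in genes in KO1 to KO3 and 4.01%, 3.79% and 3.25% in WT1 to WT3. The ranges overlapped. Most of the difference between libraries lay in the fibrinogen genes, since the other 31 members summed to 18108, 19786 and 21078 CPM in KO1 to KO3 and to 18553, 17994 and 18494 CPM in WT1 to WT3. Per kb of exon, a scale on which levels of different genes can be compared, Ahsg was the highest member at 2956 ± 659 CPM per kb in the knockout and 2659 ± 308 CPM per kb in wild type (SD, n = 3 each). Fga, Fgg, Fgb, Hrg, Kng1 and Plg came next in that order in both genotypes, with Plg at 413 ± 15.8 and 485 ± 33.9 CPM per kb in the knockout and in wild type. Ahsg, Fga and Fgg did not differ from each other beyond the spread between libraries. Of the tested members, Gas6 (24.4 ± 11.3 and 6.54 ± 0.285 CPM per kb in the knockout and in wild type), Thbd (4.69 ± 2.74 and 3.03 ± 0.722) and Tfpi (1.98 ± 1.07 and 1.51 ± 0.166) were the lowest in wild type. Exon lengths came from the GENCODE annotation of GRCm38, while the submitters' processing notes name mm9.

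**Figure D1:**
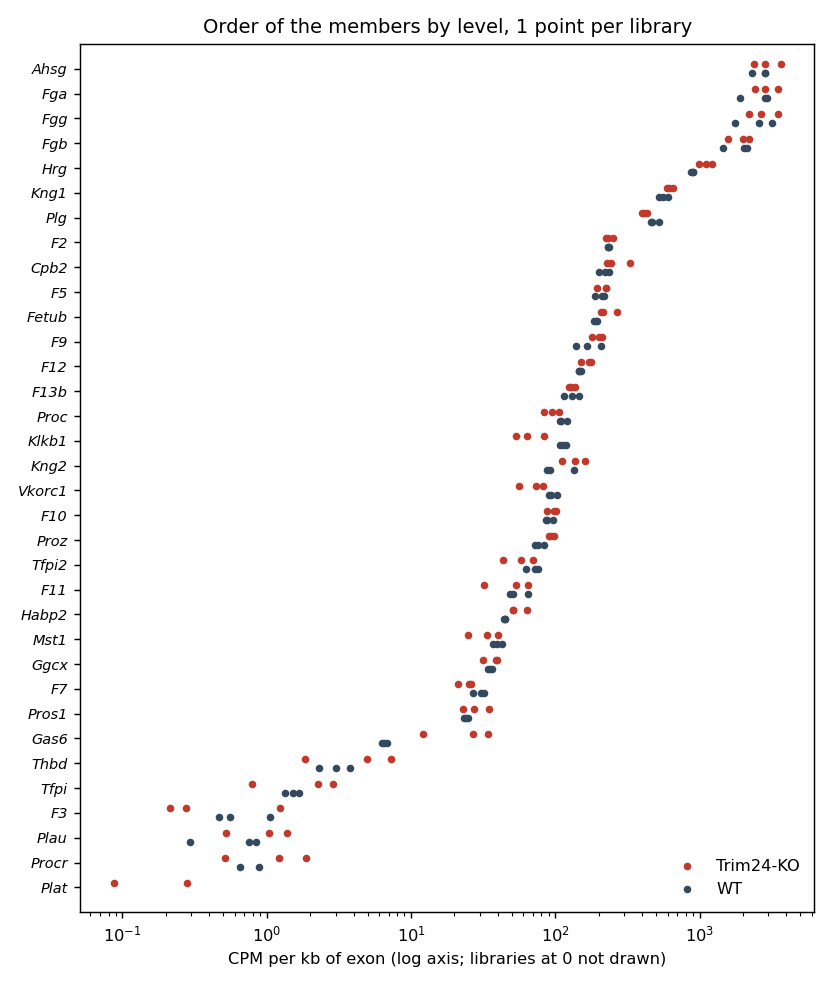
Level of each member in CPM per kb of exon on a log axis, 1 point per library, with Trim24-KO above WT in each row, libraries at 0 not drawn and genes ordered by the wild type mean. Ahsg and the fibrinogen genes lie above 1000 CPM per kb in every library and F3, Plau, Procr and Plat, which did not pass the filter, lie lowest.

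Of the 30 tested members 1 rose and 1 fell in Trim24 knockout liver. Gas6 rose and Klkb1, the gene of plasma prekallikrein, fell, at an adjusted p under 0.05 from the edgeR quasi-likelihood test over all 9180 genes. Of all tested genes 5.73% were called, 3.08% higher and 2.65% lower, so the share of the members (6.67%) was near this background. The median log2 fold change (knockout minus wild type) of the 30 was 0.15 and their median absolute change 0.25, beside 0.008 and 0.25 over all tested genes. The 95% interval of the change lay within 2-fold in either direction for 26 members (86.7%, beside 70% of all tested genes) and within 1.5-fold for 12 (40%, beside 23.5%). The 4 others were Gas6, Klkb1, Thbd and Tfpi. The width of an interval also depends on the counts of a gene, and the members were not matched for level to all tested genes. An unadjusted p under 0.05 was reached by Gas6, Klkb1, Vkorc1 and Hrg (13.3% of the members, beside 20.3% of all tested genes). In 10 members the libraries of the groups did not overlap (33.3%, beside 25% of all tested genes). These were higher in the knockout libraries for Gas6, Proz, Hrg, Habp2 and Fetub and lower for Klkb1, Vkorc1, Proc, F7 and Plg, beside 12.4% of all tested genes higher and 12.6% lower. In liver RNA, fewer cells of a type and less RNA per cell cannot be told apart.

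**Figure D2:**
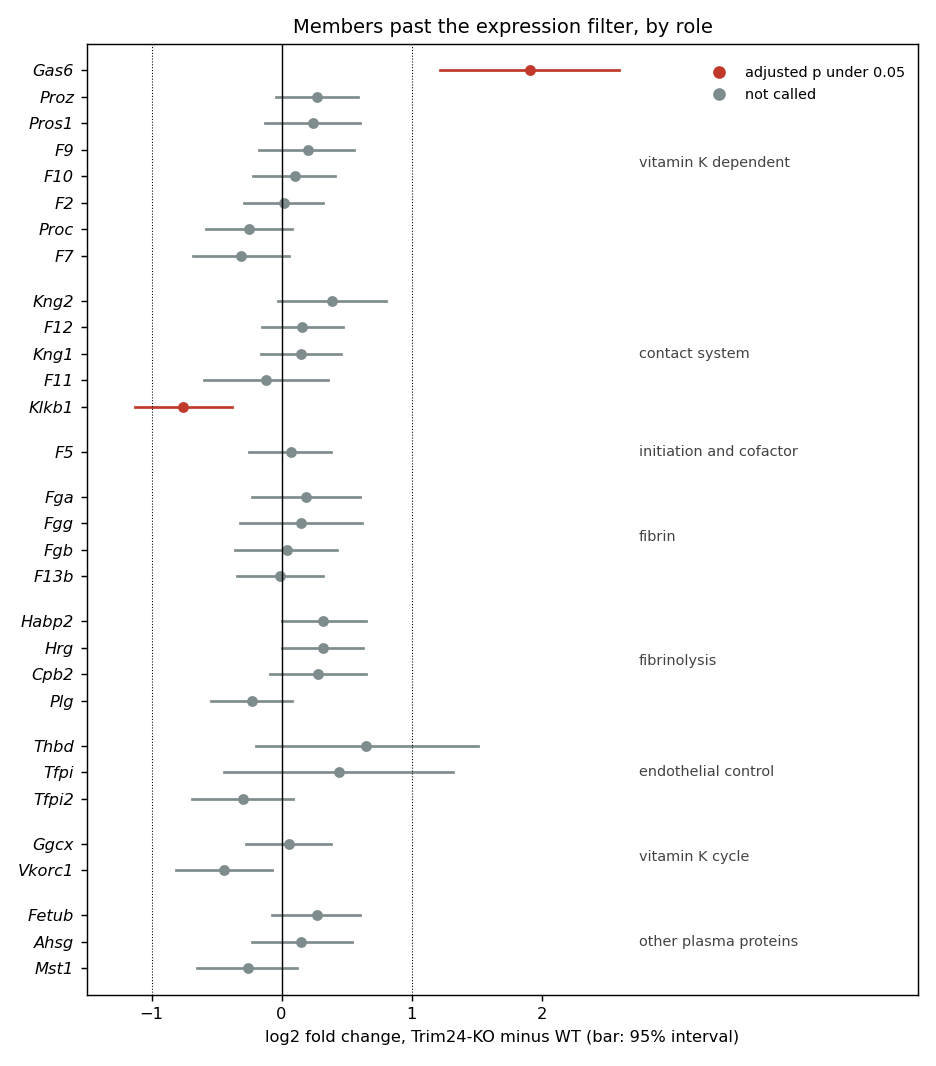
Log2 fold change of the 30 tested members, knockout minus wild type, with its 95% interval and grouped by role. Dotted lines mark a 2-fold change, and the 2 called genes are Gas6, at 1.91, and Klkb1, at -0.76.

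**Figure D3:**
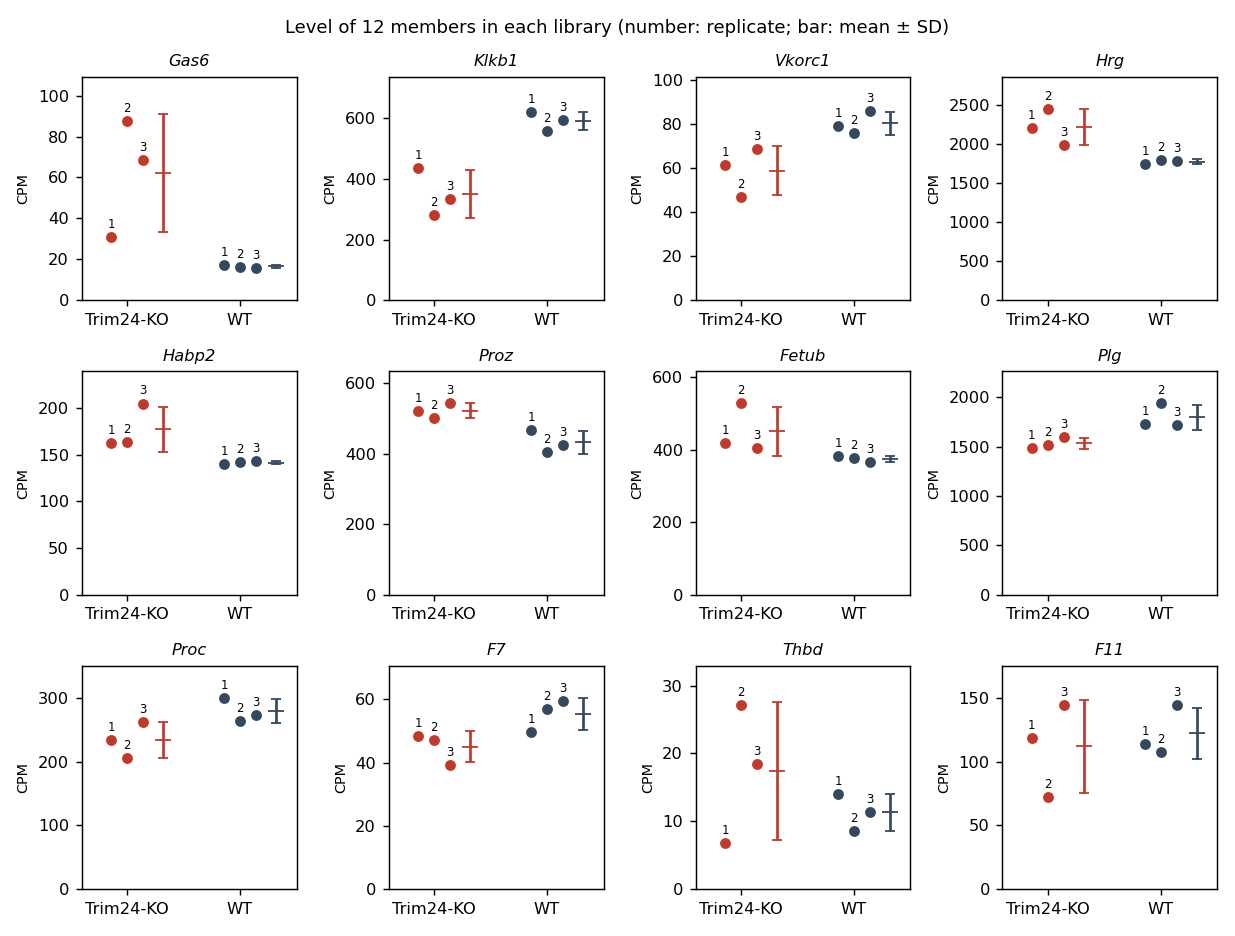
Level in CPM of 12 members in each library, Trim24-KO left of WT, with the replicate number above each point and the mean ± SD beside. The groups do not overlap for the first 10 genes, from Gas6 to F7, and overlap for Thbd and F11.

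The fibrinogen genes encode the alpha (Fga), beta (Fgb) and gamma (Fgg) chains, which are joined in equal numbers in the protein and belong to the acute-phase proteins that interleukin 6 induces in hepatocytes. They lie together on chromosome 3, with 11026 bases between Fgg and Fga and 6513 between Fga and Fgb on GRCm38. Their promoters are shown because the 3 genes varied together from library to library. Each sequence runs from 250 bases before to 50 after the start of the gene (RefSeq, GRCm38.p6), and capitals mark matches to the motifs searched, described after the sequences.
Fga, chr3:83025903-83026202, plus strand: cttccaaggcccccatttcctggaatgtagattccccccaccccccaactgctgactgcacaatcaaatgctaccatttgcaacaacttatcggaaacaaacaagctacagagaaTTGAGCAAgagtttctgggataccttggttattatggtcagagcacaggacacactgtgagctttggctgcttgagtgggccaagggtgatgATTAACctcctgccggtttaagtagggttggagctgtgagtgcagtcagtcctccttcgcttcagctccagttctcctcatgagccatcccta
Fgb, chr3:83049814-83050113, minus strand: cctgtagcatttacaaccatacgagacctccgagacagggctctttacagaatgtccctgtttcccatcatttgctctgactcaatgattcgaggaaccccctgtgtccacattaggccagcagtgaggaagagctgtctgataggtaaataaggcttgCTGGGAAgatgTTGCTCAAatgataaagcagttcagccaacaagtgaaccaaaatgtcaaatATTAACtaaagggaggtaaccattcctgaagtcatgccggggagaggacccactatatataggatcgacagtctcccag
Fgg, chr3:83007474-83007773, plus strand: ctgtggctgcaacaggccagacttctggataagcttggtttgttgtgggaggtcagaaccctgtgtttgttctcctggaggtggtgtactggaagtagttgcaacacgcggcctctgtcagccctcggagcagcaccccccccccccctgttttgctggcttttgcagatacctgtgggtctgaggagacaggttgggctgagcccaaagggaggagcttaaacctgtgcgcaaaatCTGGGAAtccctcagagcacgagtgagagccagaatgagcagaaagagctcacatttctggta
A set of 6 motifs was searched on both strands in these and in all 32851 RefSeq promoters of that length. CTGGGAA, the core of the acute-phase interleukin 6 response element, was found in the promoters of Fgb and Fgg and in 11.1% of all. TTGCNNAA, a C/EBP pattern, was found in those of Fga and Fgb and in 10.8% of all, and GTTAAT, an HNF1 motif, in those of Fga and Fgb and in 7.1% of all. CAAAGTCCA, an HNF4 motif, the GC box CCCCGCCC and TATAAA were not found in these 3 windows and were in 0.475%, 17.6% and 13.6% of all. No match overlapped another in the 3 windows. Of the 28 members with a promoter among them, 7 held CTGGGAA in any of their promoters, 12 TTGCNNAA, 7 GTTAAT, 5 CCCCGCCC and 5 TATAAA. These are counts of genes, which can have several promoters each, so they cannot be set beside the shares of single promoters above.

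None of the fibrinogen genes passed the test. Fga had 7303, 10471 and 8517 CPM in KO1 to KO3, against 8534, 8810 and 5727 CPM in WT1 to WT3. Fgb had 5988, 8407 and 7629 CPM in KO1 to KO3, against 8168, 7780 and 5543 CPM in WT1 to WT3. Fgg had 4584, 7303 and 5622 CPM in KO1 to KO3, against 6648, 5424 and 3689 CPM in WT1 to WT3. All 3 genes were highest in KO2 and lowest in WT3, and the groups overlapped for each. The log2 fold changes were 0.19 for Fga (95% interval -0.23 to 0.60), 0.04 for Fgb (-0.36 to 0.43) and 0.15 for Fgg (-0.32 to 0.62), with edgeR adjusted p of 0.64, 0.95 and 0.76. The intervals do not reach a 2-fold change. F13b, the carrier subunit of the factor that crosslinks fibrin, stood at 329 ± 16 and 331 ± 41.3 CPM in the knockout and in wild type, a log2 fold change of -0.01 (-0.34 to 0.32).

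The proportions of the chains do not depend on the scaling between libraries. Of the reads of the 3 genes, Fga held 40.9%, 40.0% and 39.1% in KO1 to KO3, and 36.5%, 40.0% and 38.3% in WT1 to WT3. Fgb held 33.5%, 32.1% and 35.0% in KO1 to KO3, and 35.0%, 35.3% and 37.1% in WT1 to WT3. The share of Fgb was 33.6% ± 1.5 in the knockout and 35.8% ± 1.1 in wild type (SD, n = 3 each), a difference of -2.24 percentage points (exact two-sided permutation p = 0.2, and 0.45 after Benjamini-Hochberg adjustment over the 3 chains). For Fga the difference was 1.71 points (exact p = 0.3) and for Fgg 0.532 points (exact p = 0.6). With 3 libraries against 3 the smallest p that this test allows is 0.1.

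**Figure D4:**
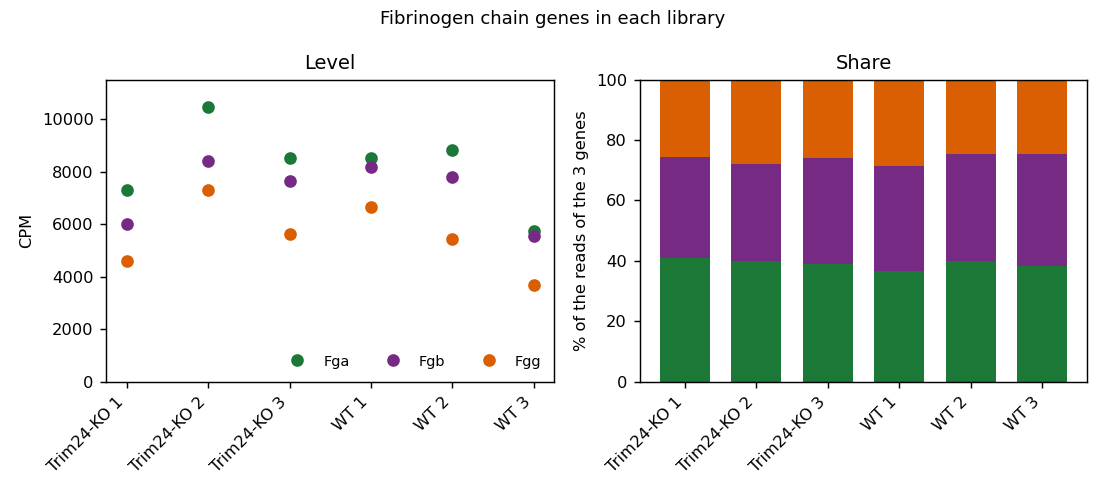
Fibrinogen chain genes in each library, Trim24-KO left of WT, as CPM on the left and as the percentage of the reads of the 3 genes on the right. Levels moved together between libraries, highest in KO2 and lowest in WT3, while the shares stayed at 39.1% to 40.9% for Fga in the knockout and 36.5% to 40.0% in wild type.

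Among the vitamin K dependent proteins, Gas6 rose and none of the 7 others passed the test. Gas6 is the ligand of the receptors Axl, Mertk and Tyro3, through which macrophages take up dying cells. Its counts were 50, 161 and 197 in KO1 to KO3, against 25, 25 and 27 in WT1 to WT3. This was 31.0, 87.4 and 68.5 CPM in KO1 to KO3, against 17.5, 16.5 and 16.0 CPM in WT1 to WT3. The wild type libraries lay close together and each knockout library was above them, KO1 least. The log2 fold change was 1.91 (SE 0.32, 95% interval 1.22 to 2.60, edgeR adjusted p = 0.0035), and it stayed called with each library left out (1.62 to 2.21, adjusted p up to 0.027, without WT3). With KO2 alone as the knockout, the library in which Gas6 was highest, the change was 2.38.

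Gas6 lies on chromosome 8 at 13465374-13494490 of GRCm38, 389 kb from Proz and in the same region as F7 and F10. Its promoter is shown beside those of the fibrinogen genes because it is the only member that rose. Its capitals mark the GC box CCCCGCCC, found there 3 times, and none of the other 5 motifs was found in this window.
Gas6, chr8:13494486-13494785, minus strand: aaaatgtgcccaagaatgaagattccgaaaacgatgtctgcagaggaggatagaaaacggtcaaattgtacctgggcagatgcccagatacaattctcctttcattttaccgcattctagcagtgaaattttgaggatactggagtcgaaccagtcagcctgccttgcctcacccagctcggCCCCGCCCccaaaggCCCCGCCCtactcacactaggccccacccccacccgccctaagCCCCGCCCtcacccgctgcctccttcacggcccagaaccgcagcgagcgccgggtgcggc
The GC box was in 17.6% of all promoters and, of the members, in those of Pros1, F3, Ggcx and Vkorc1 too. Of the other counted genes within 200 kb of Gas6, Atp4b, Fam70b and 1700029H14Rik did not pass the filter on low counts. None of the tested ones was called, Tfdp1 having the smallest p of them (13.8 ± 1.20 and 8.22 ± 2.65 CPM in the knockout and in wild type, edgeR adjusted p = 0.19). Gas6 shares 34 exon bases with a gene on the opposite strand, Fam70b in the count files, which had a count of 0 in every library.

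In liver Gas6 is also made by cells other than hepatocytes, so marker lists are given beside it. Of 13 tested markers of Kupffer cells and macrophages, C1qc, Mpeg1 and Ctss (3) rose, and the 14 counted summed to 373, 659 and 671 CPM in KO1 to KO3 and to 225, 423 and 341 CPM in WT1 to WT3. Of 10 tested stellate cell and fibroblast markers, Dcn and Col1a2 (2) rose, and the 12 counted summed to 698, 842 and 776 CPM in KO1 to KO3 and to 550, 550 and 588 CPM in WT1 to WT3. The calls of these 5 genes were each lost without WT1 and in other fits with a library left out. With KO2 alone as the knockout the log2 fold changes were 1.37 for C1qc, 1.97 for Mpeg1, 1.57 for Ctss, 0.81 for Dcn and 1.94 for Col1a2. A positive fitted change was found in 12 of the 13 tested macrophage markers and in 9 of the 10 stellate cell markers, beside 4666 of all 9180 tested genes. Over all tested genes 3.08% were called higher. The sums for both lists were lowest in KO1 among the knockout libraries, as for Gas6. Gas6 and the stellate cell sum were highest in KO2, and the macrophage sum was highest in KO3. In wild type the macrophage sum ran from 225 to 423 CPM and the stellate cell sum from 550 to 588 CPM. Gas6 ran from 16.0 to 17.5 CPM there. Of 19 tested liver endothelial markers 1 rose (Tek) and 2 fell (Stab2 and Ehd3), 8 had a positive and 11 a negative fitted change, and the 20 counted summed to 816, 738 and 878 CPM in KO1 to KO3 and to 930, 1029 and 1037 CPM in WT1 to WT3. No marker of the 3 lists was at 0 in all libraries. Their part in the rise of Gas6 was not tested. Of the receptors, Axl had 19.8, 42.9 and 42.4 CPM in KO1 to KO3, against 17.5, 25.1 and 26.1 CPM in WT1 to WT3 (edgeR adjusted p = 0.24). Mertk stood at 22.3 ± 5.34 and 22.3 ± 6.25 CPM in the knockout and in wild type (edgeR adjusted p = 0.97), and Tyro3 had at most 3 counts in a library. The receptors were named here for their role, with their values known.

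**Figure D5:**
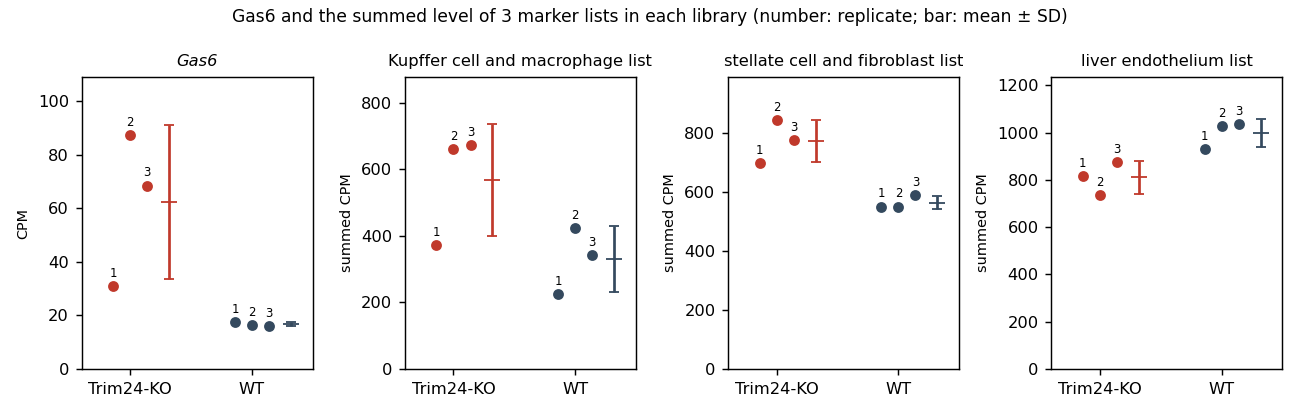
Gas6 in CPM and the summed CPM of 3 marker lists in each library, Trim24-KO left of WT, with the replicate number above each point and the mean ± SD beside. Gas6 and the stellate cell sum are higher in every knockout library than in wild type, the macrophage sum of KO1 (373 CPM) lies below that of WT2 (423 CPM), and the endothelial sum is lower in every knockout library.

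Prothrombin (F2), the precursor of thrombin, stood at 1082 ± 72.6 CPM in the knockout and 1068 ± 11.3 CPM in wild type (SD, n = 3 each), with a log2 fold change of 0.02 with a 95% interval of -0.29 to 0.32. F9 and F10, the proteases before thrombin in the cascade, had log2 fold changes of 0.20 (-0.17 to 0.56) and 0.10 (-0.22 to 0.41), and Pros1, the cofactor protein S, had 0.24 (-0.13 to 0.60). Libraries of the groups overlapped for these 4. They did not overlap for the 3 below, although none was called.

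F7, the protease that tissue factor binds at the start of clotting, had 48.3, 47.2 and 39.3 CPM in KO1 to KO3, against 49.6, 56.9 and 59.4 CPM in WT1 to WT3 (log2 fold change -0.31, SE 0.17, edgeR adjusted p = 0.33). KO1 and WT1 lay next to each other. Proc, the gene of the anticoagulant protein C, had 234, 206 and 263 CPM in KO1 to KO3, against 301, 265 and 274 CPM in WT1 to WT3 (-0.25, SE 0.15, adjusted p = 0.38). Proz, the gene of protein Z, which brings an inhibitor to factor X, had 520, 501 and 543 CPM in KO1 to KO3, against 467, 403 and 424 CPM in WT1 to WT3 (0.27, SE 0.14, adjusted p = 0.32). Its partner inhibitor, Serpina10, is described with the inhibitors below.

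Of the enzymes of the vitamin K cycle, Ggcx, the carboxylase, stood at 119 ± 14 and 114 ± 3.64 CPM in the knockout and in wild type, a log2 fold change of 0.06 (95% interval -0.27 to 0.38). Vkorc1, the reductase that restores vitamin K and the target of warfarin, had 61.3, 46.7 and 68.5 CPM in KO1 to KO3, against 78.9, 76.1 and 86.1 CPM in WT1 to WT3. Every knockout library lay below the wild type ones. The log2 fold change was -0.44 (SE 0.17, interval -0.81 to -0.07, edgeR adjusted p = 0.16), which did not pass. In GENCODE 44.7% of the 50-base stretches of its transcripts are shared with Gm21974, an overlapping transcript on the same strand that the files do not list.

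In the contact system Klkb1 fell and the other 4 members did not pass the test. Klkb1 encodes prekallikrein, which factor XII activates to plasma kallikrein, the protease that releases bradykinin from kininogen. Its counts were 706, 516 and 960 in KO1 to KO3, against 888, 846 and 1000 in WT1 to WT3, which was 437, 280 and 334 CPM in KO1 to KO3, against 620, 559 and 594 CPM in WT1 to WT3. The groups did not overlap and KO2 was lowest. The log2 fold change was -0.76 (SE 0.18, 95% interval -1.13 to -0.38, edgeR adjusted p = 0.023). The direction held with each library left out, but the call was kept only without KO1 (-0.95, adjusted p = 0.0047). It was lost without WT1, WT2, WT3, KO2 or KO3, with adjusted p of 0.083, 0.056, 0.089, 0.086 and 0.068. With KO2 alone as the knockout, the lowest library for Klkb1, the change was -1.08.

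F11, the gene of factor XI, a close relative of prekallikrein, lies 4657 bases from Klkb1 on chromosome 8 of GRCm38. It had 119, 72.2 and 145 CPM in KO1 to KO3, against 114, 108 and 145 CPM in WT1 to WT3. KO2 was the lowest library for F11 as for Klkb1, and the groups overlapped (log2 fold change -0.12, SE 0.22, interval -0.60 to 0.36, edgeR adjusted p = 0.81). Cyp4v3, a fatty acid hydroxylase gene that lies 10.1 kb from the other end of Klkb1, rose, with 2304, 1691 and 1956 CPM in KO1 to KO3 and 754, 659 and 707 CPM in WT1 to WT3 (log2 fold change 1.49, SE 0.16, adjusted p = 0.00013). It is no member and was named after its value was seen, and it was called in each alternative run, with changes of 1.26 to 1.60. Of the other counted genes within 200 kb of Klkb1, Mtnr1a and Gm6329 did not pass the filter, and none of the tested ones was called. GENCODE also holds a transcript, Gm45753, that shares 2267 exon bases with Klkb1 on the same strand and is not listed in the files. How reads of such a transcript were counted was not tested. The promoters of the neighbours Klkb1 and F11 are shown because the first was called and the second was not.
Klkb1, chr8:45294786-45295085, minus strand: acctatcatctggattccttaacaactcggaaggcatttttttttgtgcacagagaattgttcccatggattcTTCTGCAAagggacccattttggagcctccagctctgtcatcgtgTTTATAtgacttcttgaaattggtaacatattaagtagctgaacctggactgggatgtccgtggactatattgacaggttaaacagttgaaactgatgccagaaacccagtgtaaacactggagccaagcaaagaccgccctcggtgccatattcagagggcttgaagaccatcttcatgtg
F11, chr8:45261982-45262281, minus strand: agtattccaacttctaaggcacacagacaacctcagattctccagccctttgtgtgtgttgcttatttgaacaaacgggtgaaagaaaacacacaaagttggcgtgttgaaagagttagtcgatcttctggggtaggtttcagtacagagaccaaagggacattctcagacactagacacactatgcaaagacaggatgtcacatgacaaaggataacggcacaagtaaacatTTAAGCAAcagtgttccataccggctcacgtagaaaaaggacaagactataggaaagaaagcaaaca
Capitals mark the C/EBP pattern TTGCNNAA, found in both on the opposite strand, and TATAAA, found in that of Klkb1 on the opposite strand. The other 4 motifs were not found in these windows.

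F12, the gene of factor XII, stood at 324 ± 26.2 CPM in the knockout and 290 ± 4.48 CPM in wild type (log2 fold change 0.16, 95% interval -0.15 to 0.47). Kng1 and Kng2 encode kininogens, the carriers of bradykinin, and had log2 fold changes of 0.15 (-0.16 to 0.46) and 0.39 (-0.03 to 0.80), with Kng2 at 374 ± 66.4 CPM in the knockout and 286 ± 69.8 CPM in wild type. Libraries overlapped for all 3. Kng1 and Kng2 share 17.2% and 19.4% of the 50-base stretches of their transcripts with each other, so part of their reads could fit either gene. Whether such reads were counted or set aside was not tested.

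The kininogens are part of a row of related genes on chromosome 16, in the order Ahsg, Fetub, Hrg, Kng2 and Kng1, with 11.3 to 28.4 kb between neighbours on GRCm38. All 5 had a positive fitted change, as had 21 of the 30 tested members and 4666 of 9180 genes, and none was called. Without KO3 the change of Ahsg was -0.04. Hrg, the gene of histidine-rich glycoprotein, which binds plasminogen and heparin, had 2204, 2445 and 1989 CPM in KO1 to KO3, against 1742, 1794 and 1786 CPM in WT1 to WT3. Every knockout library was above the wild type ones. The log2 fold change was 0.32 (SE 0.15, unadjusted p = 0.047, edgeR adjusted p = 0.24). Fetub had 419, 528 and 405 CPM in KO1 to KO3, against 383, 376 and 365 CPM in WT1 to WT3, again without overlap (0.27, SE 0.16, adjusted p = 0.36). Ahsg, the most abundant of the 5 per kb, stood at 6494 ± 1447 CPM in the knockout and 5841 ± 676 CPM in wild type, with overlap (0.15, SE 0.18, adjusted p = 0.69).

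Of the genes of fibrinolysis, 4 were tested (Plg, Habp2, Cpb2 and Hrg, the last given above) and none was called. Plasminogen (Plg), the precursor of plasmin, had 1484, 1519 and 1598 CPM in KO1 to KO3, against 1732, 1944 and 1720 CPM in WT1 to WT3. Every knockout library lay below the wild type ones (log2 fold change -0.23, SE 0.14, interval -0.54 to 0.08, edgeR adjusted p = 0.40). Plg shares 420 exon bases with Slc22a3 on the opposite strand. Habp2, a hyaluronan-binding protease that can activate factor VII, had 163, 164 and 205 CPM in KO1 to KO3, against 140, 142 and 143 CPM in WT1 to WT3 (0.32, SE 0.15, adjusted p = 0.25). The wild type libraries were within a narrow range and KO3 was highest. Habp2 shares 268 exon bases with Nrap on the opposite strand, and without the strand of the reads the pairs cannot be told apart. Cpb2, the carboxypeptidase that protects fibrin from plasmin, stood at 435 ± 90 CPM in the knockout and 358 ± 28.7 CPM in wild type (0.28, interval -0.09 to 0.65). Mst1, the plasminogen relative, was grouped with the other plasma proteins and not with fibrinolysis. It stood at 74.0 ± 16.9 CPM in the knockout and 89.4 ± 6.39 CPM in wild type (-0.26, interval -0.65 to 0.12).

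The activators of plasminogen were near the limit of detection. Plat had counts of 0, 1 and 5 in KO1 to KO3 and of 0 in each wild type library. Plau had counts of 2, 6 and 7 in KO1 to KO3 and of 1, 3 and 3 in WT1 to WT3. F3, the gene of tissue factor, had counts of 5, 1 and 2 in KO1 to KO3 and of 2, 4 and 2 in WT1 to WT3. At this depth no difference was detectable for them. F5, the cofactor of factor X and a hepatocyte product, was abundant at 1597 ± 138 CPM in the knockout and 1526 ± 118 CPM in wild type (log2 fold change 0.07, 95% interval -0.25 to 0.38).

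Of the members that control clotting at the vessel wall 3 were tested and none was called, and the intervals of Thbd and Tfpi reached beyond a 2-fold change. Thbd, the gene of thrombomodulin, which turns thrombin into an activator of protein C, had counts of 11, 50 and 53 in KO1 to KO3 and of 20, 13 and 19 in WT1 to WT3. This was 6.81, 27.1 and 18.4 CPM in KO1 to KO3, against 14.0, 8.60 and 11.3 CPM in WT1 to WT3. KO1 was below every wild type library, and KO2 and KO3 were above. The log2 fold change was 0.65 (SE 0.40, interval -0.20 to 1.51, edgeR adjusted p = 0.39). With KO2 alone as the knockout Thbd was called higher (1.26, adjusted p = 0.041), in a fit that called 2.98% of genes higher and 2.65% lower, while without KO2 the change was 0.26 (adjusted p = 0.81). Tfpi, the inhibitor of tissue factor and factor VII, had 12.4, 4.34 and 15.7 CPM in KO1 to KO3, against 9.08, 7.27 and 8.31 CPM in WT1 to WT3. Here KO2 was the lowest library and KO3 the highest (0.44, interval -0.44 to 1.32). Tfpi2, a second Kunitz inhibitor, stood at 99.4 ± 23.3 CPM in the knockout and 123 ± 11.6 CPM in wild type (-0.30, interval -0.69 to 0.09). Procr, the endothelial receptor of protein C, had counts of 4, 7 and 3 in KO1 to KO3 and of 0, 2 and 3 in WT1 to WT3. The summed endothelial markers given above were lower in the knockout, but single markers went both ways. Tek, the gene of the angiopoietin receptor Tie2, had 93.5, 98.8 and 125 CPM in KO1 to KO3, against 31.4, 33.7 and 34.4 CPM in WT1 to WT3 (log2 fold change 1.68, SE 0.17, edgeR adjusted p = 9.5e-05), and was called in each alternative run. Stab2 had 63.1 ± 18.7 CPM in the knockout and 119 ± 5.66 CPM in wild type, and its call was lost without WT2 or WT3 (edgeR adjusted p = 0.068 and 0.065). Ehd3 had 40.8 ± 9.05 CPM in the knockout and 72.9 ± 6.37 CPM in wild type, and its call was lost without WT1, WT3 or KO2 (edgeR adjusted p = 0.053, 0.097 and 0.074). Their part in the values of Thbd, Tfpi and Procr was not tested.

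Other genes of haemostasis, taken by role, held 2 calls. Of 45 listed genes 44 were counted and 30 tested, and 2 rose and none fell. Over all tested genes 3.08% were called higher and 2.65% lower, and this background also applies to the lists below. An unadjusted edgeR p under 0.05 was reached by 15 of the 30, beside 20.3% of all tested genes. Of 8 tested coagulation factors outside the members none was called, the smallest p belonging to Adamts13, the protease of von Willebrand factor (10.8 ± 4.19 and 4.59 ± 1.01 CPM in the knockout and in wild type, edgeR adjusted p = 0.078), and Furin, a convertase of proproteins (175 ± 5.70 and 240 ± 26.1 CPM, adjusted p = 0.097). Of 6 tested inhibitors of coagulation and fibrinolysis 1 rose. This was Serpina10, the protein Z dependent inhibitor of factor X, with 206, 211 and 202 CPM in KO1 to KO3 and 110, 144 and 124 CPM in WT1 to WT3 (log2 fold change 0.71, SE 0.15, adjusted p = 0.015). Its call was lost without WT1 or WT3 (adjusted p = 0.073 and 0.085) and with KO2 alone (0.051). Antithrombin (Serpinc1) had a log2 fold change of -0.08 (interval -0.40 to 0.24).

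Of 9 tested cell surface receptors and their partners 1 rose, S100a10, which with annexin A2 binds plasminogen at the cell surface. It had 121, 219 and 285 CPM in KO1 to KO3 and 97.1, 69.4 and 83.7 CPM in WT1 to WT3 (log2 fold change 1.33, SE 0.26, edgeR adjusted p = 0.0086), a call lost without WT2 (adjusted p = 0.052) or WT3. Of 7 tested kringle and fibrinogen-related proteins none was called, with Hgf at 37.8 ± 1.42 and 25.3 ± 5.07 CPM and Angptl4 at 91.9 ± 41.2 and 154 ± 52.2 CPM in the knockout and in wild type (adjusted p = 0.12 and 0.15). Of 15 tested liver transcription factors 1 rose and 1 fell. Nfe2l2, the factor of the antioxidant response, rose to 68.6 ± 7.16 CPM in the knockout, against 39.1 ± 6.02 CPM in wild type (adjusted p = 0.016), a call lost without WT2, WT3 or KO3 and with KO2 alone. Cebpa, the gene of C/EBP alpha, fell to 114 ± 12.6 CPM in the knockout, against 170 ± 15.9 CPM in wild type (-0.58, SE 0.15, adjusted p = 0.044). The call of Cebpa was lost with upper quartile factors, with library size only, with KO2 alone and without each library other than KO1, with adjusted p up to 0.17.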

How the data were processed

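Per the labels' protocols, total RNA of homogenized liver was extracted with TRIzol, reverse transcribed with SuperScript and made into Illumina libraries. Read counts per gene symbol were deposited by the authors for each of 6 libraries, with no normalization. TopHat 1.4.1, HTSeq, edgeR and the mm9 build appear without a role in the submitters' processing notes, with the strand setting and annotation not given in the sources used here. Summary rows of the counter entered neither library sizes nor tests, and 0 columns were unused. Reads in no gene were 93.3% to 95.8%. Whether a mismatch of strand or annotation in the counting lies behind this share was not tested, and the gene counts may be incomplete for that reason.

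The main test was that of edgeR 4.0.16 under R 4.3.3 (quasi-likelihood F test, TMM factors, filterByExpr with a minimum count of 10, genotype as the only term, Benjamini-Hochberg adjustment over 9180 genes). The SE was taken as the log2 change divided by the root of F, and 95% intervals use the test's degrees of freedom. It was also run on simulated counts with known changes, drawn with the means, library sizes and dispersions of these data. Such counts cannot show whether the test holds for these libraries, and the outcome is not reported here. The members and lists were chosen with earlier results of these data known. Each member was named, and values per library were given for members called in any setting, with an unadjusted p under 0.05 or without overlap, and for fibrinogen. Of other lists, called genes or the 2 of smallest p were named. Alternatives were DESeq2 1.42.0, limma 3.58.1 voom, other factors and filters, a threshold of 0.10, each library left out and the replicate number as a block. Positions came from GENCODE M21 (GRCm38), to which 34 members were matched, and promoters from RefSeq (GRCm38.p6). They were not converted to mm9.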

Additional observations from a re-analysis of the deposited data

How the results depend on the processing

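The rise of Gas6 was called in each of the 16 alternatives run, with log2 fold changes of 1.62 to 2.38. Of the 16, the threshold of 0.10 was the main fit read again, so no call could be lost there. The fit with KO2 alone kept the knockout library in which Gas6 was highest and Klkb1 lowest. The fall of Klkb1 kept its direction in all 16 (-1.08 to -0.61) and its call in 11, the exceptions being the 5 fits without a library named in the text. With libraries left out, 1 member was called higher each time and 0 to 1 lower, while 127 to 409 genes were called higher and 95 to 363 lower over all genes. With KO2 alone as the knockout 2 members were called higher, Gas6 and Thbd. Over all genes, 576 were higher and 509 lower with no filter, and 445 and 437 at an adjusted p under 0.10, beside 283 and 243.

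Members that were never called changed sign in some fits. With libraries left out, the log2 fold change was -0.04 to 0.06 for F2, 0.00 to 0.13 for F5, -0.37 to 0.12 for F11, -0.13 to 0.16 for Fgb, -0.05 to 0.35 for Fgg, -0.10 to 0.08 for F13b, -0.01 to 0.79 for Tfpi, 0.00 to 0.16 for Ggcx and -0.04 to 0.28 for Ahsg. It was 0.00 for F2 with no filter, and 0.01 and 0.08 for F13b with upper quartile factors and with library size only. With KO2 alone it was -0.07 for F2, -0.91 for Tfpi and -0.16 for Ggcx. The cause was not tested. The share of Fgg in the fibrinogen reads differed by -0.187 to 1.81 percentage points with libraries left out, that of Fga by 0.841 to 2.58 and that of Fgb by -2.99 to -1.52. With the longest transcript as the length, Fgg came before Fga in wild type, at 3017 and 2973 CPM per kb.

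The replicate numbers were not taken as pairs because they are not stated to pair animals. Same-numbered libraries did not vary together (r of their deviations from the group means -0.07, 0.07 and 0.03), which with so few libraries cannot decide whether they were pairs. With the replicate number as a block, 295 genes were higher and 250 lower, and the calls of Gas6 (adjusted p = 0.0017) and Klkb1 (0.014) were kept.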
